A study of Mus musculus with 10 samples.

Results

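The genes described here are 10 endothelial genes, Pecam1, Cdh5, Kdr, Tek, Tie1, Flt1, Eng, Emcn, Esam and Ramp2. They were chosen by name, and a gene was measured where the array had a probe annotated with that 1 symbol. Such a probe was found for 9 of the 10 genes, out of 18069 genes named on the array. Eng, the coreceptor endoglin, had none, and no level of it is given. Emcn had a pair of probes, and a gene with several probes is given by the probe with the highest mean log2 level over the 10 arrays.

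Total RNA of 5 groups was hybridised to 1-colour CodeLink mouse arrays, with 2 arrays a group. Dox(+) EBs were embryoid bodies, floating aggregates grown from engineered Ainv18 ES cells, that received 1 µg/ml doxycycline from day 4 and were harvested on day 13. Dox(-) EBs were the same cells at day 13 without doxycycline. By the study's protocol, both EB groups had activin A before day 4 to induce endoderm. Activin A, BMP4 and bFGF were added to both on day 4. The labels disagree on the inducible gene: the source entry names a Pdx1-IRES-Ngn3 cassette, as the study's methods do, whereas the tissue entry of the same arrays names activated Notch4. The cassette sits in the hprt locus of 1 engineered ES cell line, and the feeder cells were depleted by passaging before differentiation began. The other groups were βTC6 cells, a mouse insulinoma line, whole islets, and whole pancreas of E15.5 embryos. The age of the islets is not settled: the labels give none, and the study calls them adult in its text but E15.5 in a heading of its supplement, so that age and tissue cannot be told apart between islets and E15.5 pancreas. None of the 3 groups was treated. Each pair of arrays is labelled as biological replicates, but a separate culture or dissection for each is not stated, and the tests therefore cover no more than the spread between the arrays of a pair.

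Levels are scaled intensities, in which the median probe of each array is 1, and a level under 0.27 was set to 0.27. Between 65.98% and 74.34% of the probes on an array were above background, and the net signal of an array was 1.66 to 2.62 times its background. The probes of the induced genes did not separate the EB groups: Neurog3 (Ngn3) read 0.447 and 0.557 in Dox(+) EBs, against 0.458 and 0.521 in Dox(-) EBs, Pdx1 was at background on each of the 4 arrays, and Notch4 read 0.877 on the 1 usable Dox(+) array and 0.637 and 0.799 in Dox(-) EBs. Where these probes lie relative to the cassette is not given in the sources used here, so they do not check the labels. Endocrine markers did separate the groups: Sst, the somatostatin gene, read 120 and 103 in Dox(+) EBs against 0.27 on both Dox(-) arrays. The islets held acinar transcripts, with a sum of 1047 and 1211 over 4 acinar genes, against 630 and 656 in E15.5 pancreas. Spots of all 4 acinar genes were saturated on both islet arrays, and those of Cpa1 and Amy2a5 also on both E15.5 arrays. The acinar sums of islets and of E15.5 pancreas, here and below, are therefore lower limits. Slide numbers fall in 3 ranges, 1 for both EB groups, 1 for E15.5 pancreas and 1 shared by islets and βTC6 cells, and slide range and tissue cannot be told apart except between the EB groups and between βTC6 cells and islets.

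Endothelial cells line blood vessels. They sense vascular endothelial growth factor (VEGF) through the receptor kinases Kdr and Flt1, and angiopoietins through the receptor kinase Tek, with which the related receptor Tie1 associates. They hold on to each other through VE-cadherin (Cdh5), Pecam1 and Esam, and carry the sialomucin endomucin (Emcn) on their surface. Ramp2 pairs with the receptor Calcrl to form the adrenomedullin receptor. In the pancreas, endothelium contacts the epithelium from early bud stages, and adult islets are densely supplied with fenestrated capillaries.

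Kdr, the main signalling receptor for VEGF, was high in every group but the insulinoma line. It read 20.3 and 19.7 in Dox(+) EBs, against 16.7 and 17.0 in Dox(-) EBs, 0.375 and 0.542 for βTC6, 22.6 and 21.1 for islets and 23.7 and 24.3 for the E15.5 organ. The first βTC6 array was at background. Ordered by mean level, the groups ran from E15.5 pancreas through islets, Dox(+) EBs and Dox(-) EBs to βTC6 cells, and of these 4 steps only the last, from Dox(-) EBs to βTC6 cells, passed the test (limma, adjusted p = 2.5e-10).

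Flt1, the VEGF receptor that binds VEGF tightly and signals weakly, was measured above the floor in islets only, with 0.780 and 0.750. The 8 other arrays stood at the floor of 0.27. The second E15.5 array was marked above background although its level lay under the floor. The islets were at least 2.83-fold above Dox(+) EBs and E15.5 pancreas, at least 2.79-fold above Dox(-) EBs and at least 2.43-fold above βTC6 cells, bounds set by the floor or, if higher, by each array's faintest probe above background. Flt1 entered the tests only through the islet arrays, and its other levels were set to the floor without spread. The counts below include its calls against islets, but the p-values of those calls are not support.

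Tek, the angiopoietin receptor, read 1.24 and 1.07 in Dox(+) EBs, against 1.36 and 1.49 in Dox(-) EBs, 0.397 and 0.440 for βTC6, 3.00 and 2.73 for islets and 4.35 and 4.04 for the E15.5 organ. The first βTC6 array was at background. Ordered by mean level, E15.5 pancreas was highest, then islets, Dox(-) EBs, Dox(+) EBs and βTC6 cells. Only the step between Dox(-) EBs and Dox(+) EBs did not pass the test (adjusted p = 0.088).

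Tie1 was high in 4 groups and near the floor in 1. It read 15.8 and 13.3 in Dox(+) EBs, against 13.2 and 14.5 in Dox(-) EBs, 0.281 and 0.27 for βTC6, 9.79 and 8.67 for islets and 17.2 and 16.5 for the E15.5 organ. E15.5 pancreas, Dox(+) EBs and Dox(-) EBs followed each other without a step past the threshold, whereas Dox(-) EBs stood above islets and islets above βTC6 cells.

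Pecam1, an adhesion molecule of endothelial junctions that platelets and leukocytes also carry, read 4.98 and 4.67 in Dox(+) EBs, against 2.05 and 2.72 in Dox(-) EBs, 0.27 on both βTC6 arrays, 5.77 and 6.04 for islets and 8.49 and 9.40 for the E15.5 organ. By mean level, E15.5 pancreas was highest, then islets, Dox(+) EBs, Dox(-) EBs and βTC6 cells. The step between islets and Dox(+) EBs, adjacent in the order, did not pass the test (adjusted p = 0.083), and the other 3 steps did.

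Cdh5, the cadherin of endothelial adherens junctions, lay close to background on every array. It read 0.655 and 0.562 in Dox(+) EBs, against 0.277 and 0.27 in Dox(-) EBs, 0.27 on both βTC6 arrays, 0.384 and 0.293 for islets and 0.450 and 0.416 for the E15.5 organ. Both Dox(-) arrays, both βTC6 arrays and the second islet array were at background. Dox(+) EBs were highest and E15.5 pancreas next, and this was the only step in its order past the threshold (adjusted p = 0.026).

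Esam, an adhesion molecule that platelets also carry, was the evenest of the 9 genes. It read 13.4 on both Dox(+) arrays, against 15.9 and 12.1 in Dox(-) EBs, 7.72 and 9.71 for βTC6, 11.2 and 9.62 for islets and 10.4 and 11.1 for the E15.5 organ. None of the 4 steps in its order passed the test.

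Emcn was highest in islets. Its main probe read 7.05 and 6.83 in Dox(+) EBs, against 2.42 and 2.48 in Dox(-) EBs, 0.27 on both βTC6 arrays, 17.2 and 18.1 for islets and 5.35 and 6.81 for the E15.5 organ. Dox(+) EBs and E15.5 pancreas did not differ past the threshold (adjusted p = 0.18), and the other steps passed. The second probe, designed on an expressed sequence tag, was at the floor on 8 arrays and read 0.638 and 0.554 in islets. It also put islets highest but gave no difference among the EB groups, βTC6 cells and E15.5 pancreas. The Emcn folds below are from the main probe.

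Ramp2 had its own order, with Dox(-) EBs highest and islets lowest. It read 21.7 and 19.8 in Dox(+) EBs, against 26.5 and 24.3 in Dox(-) EBs, 8.93 and 11.4 for βTC6, 5.45 and 5.38 for islets and 18.5 and 18.9 for the E15.5 organ. The last 2 steps passed the test, E15.5 pancreas over βTC6 cells (adjusted p = 5.2e-05) and βTC6 cells over islets (adjusted p = 4.7e-05).

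**Figure D1:**
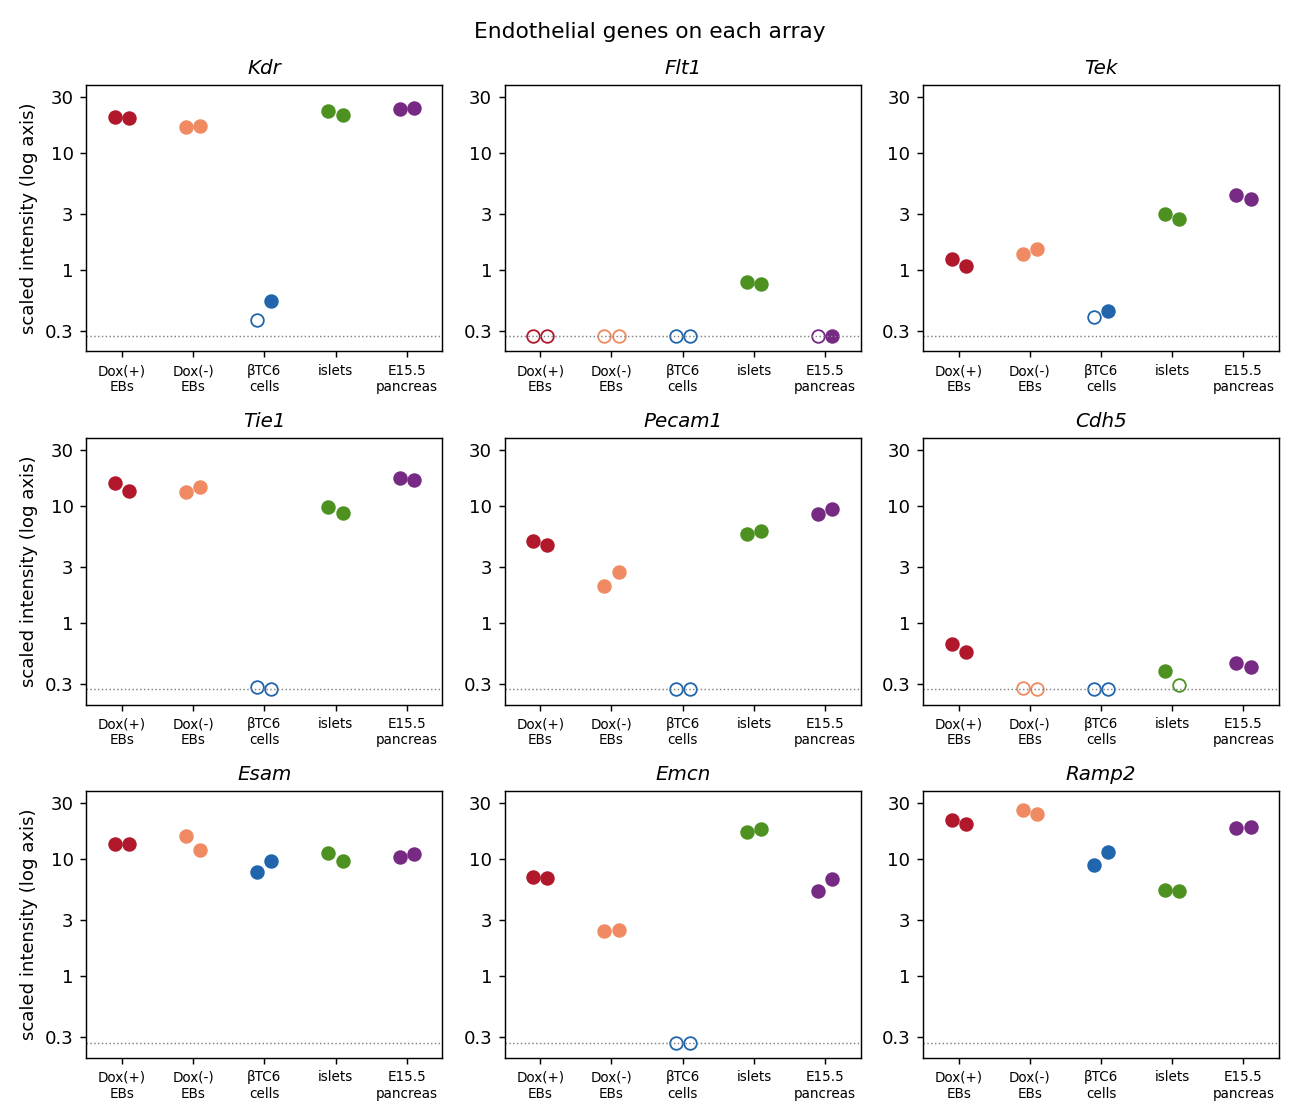
Scaled intensity (log axis) of 9 endothelial genes on each of the 10 arrays, with 2 points a group; open circles were marked at background and a dotted line marks 0.27, the floor. The βTC6 arrays are at or near the floor for all genes but 2: Esam and Ramp2 stay between 7.72 and 11.4 there.

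Across the 9 genes, 16 of the 36 steps between neighbouring groups passed the test. E15.5 pancreas was the highest group for 4 genes, islets for 2, Dox(-) EBs for 2, Dox(+) EBs for 1 and βTC6 cells for 0. The number of genes above background on both arrays was 8 in Dox(+) EBs, 7 in Dox(-) EBs, 2 in βTC6 cells, 8 in islets and 8 in E15.5 pancreas. The 2 genes above background on both βTC6 arrays were Esam and Ramp2.

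Promoters of 6 of the 10 genes were in the RefSeq table used here (build GRCm38.p6, from 250 bases before to 50 bases after the start site). Emcn, which differed most between the EB groups, and Kdr, which did not pass that test, are shown on the gene's own strand, with GGAA and its reverse complement TTCC, the core that ETS factors of endothelial cells bind, in capitals. The Emcn window is chr3:137340828-137341127 on the plus strand and the Kdr window is chr5:75978406-75978705 on the minus strand.
Emcn: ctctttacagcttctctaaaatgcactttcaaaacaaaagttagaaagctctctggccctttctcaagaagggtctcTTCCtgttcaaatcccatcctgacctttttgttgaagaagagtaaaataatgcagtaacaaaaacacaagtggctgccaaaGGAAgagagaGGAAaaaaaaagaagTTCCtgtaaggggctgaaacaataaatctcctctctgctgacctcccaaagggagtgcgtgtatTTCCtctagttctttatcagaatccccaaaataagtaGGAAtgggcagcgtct
Kdr: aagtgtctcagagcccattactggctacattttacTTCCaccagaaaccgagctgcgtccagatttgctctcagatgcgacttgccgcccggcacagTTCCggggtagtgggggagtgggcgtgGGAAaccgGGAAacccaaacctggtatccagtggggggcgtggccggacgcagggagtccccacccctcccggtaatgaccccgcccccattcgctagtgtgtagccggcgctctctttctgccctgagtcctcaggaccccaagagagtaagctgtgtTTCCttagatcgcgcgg
The Emcn window holds 6 such cores and the Kdr window 5, and the 6 windows hold 2 to 9, with a median of 4.5. At least 1 core is in 96.0% of the 32851 promoter windows of that length, where the median is 3, so its presence sets no promoter apart. The longer ETS form AGGAAG, which contains GGAA, was in 4 of the 6 windows (Emcn, Eng, Flt1 and Tie1) and in 35.4% of all windows. The GATA form AGATAA was in 1 window, Tek, against 11.2% of all, the SOX form ACAAAG in 2, Eng and Tek, against 18.7%, and TATAAA in 1, Flt1, against 13.6%. Both strands were searched for each. These are matches of letters, with no test and no measurement of binding.

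The first comparison asks how doxycycline from day 4 to day 13 moved the endothelial genes of the EBs. Emcn, Cdh5 and Pecam1 rose, and the 4 receptor genes, Esam and Ramp2 did not pass the test. Emcn was 2.83-fold higher with doxycycline (log2 difference 1.50, SE 0.12, adjusted p = 3.4e-06). Pecam1 was 2.04-fold higher (log2 difference 1.03, SE 0.14, adjusted p = 0.00015). Cdh5 was at least 2.21-fold higher (adjusted p = 0.00025), a bound because both Dox(-) arrays were at background. Its levels in Dox(-) EBs and βTC6 cells stood at or next to the floor with almost no spread, so its p-values are weak support throughout. In bulk RNA, fewer cells of a type and less RNA per cell cannot be told apart.

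The 6 other genes lay within 0.31 of 0 on the log2 scale. Kdr differed by 0.25 (SE 0.14, adjusted p = 0.19), Tie1 by 0.07 (adjusted p = 0.65), Esam by -0.05 (adjusted p = 0.86), Ramp2 by -0.29 (SE 0.12, adjusted p = 0.065) and Tek by -0.31 (SE 0.13, adjusted p = 0.088), and Flt1 was at the floor on all 4 arrays. For Kdr, Ramp2 and Tek the arrays of the 2 EB groups did not overlap, and for Tie1 and Esam they did. With 2 arrays a group this is no test, and the share of all probes without overlap was not counted, so it adds nothing to the results of limma. Kdr and Ramp2 passed the threshold in opposite directions when the fit used the 4 EB arrays alone (adjusted p = 0.035 and 0.024) and when either βTC6 array was left out (adjusted p = 0.019 and 0.020 for Kdr, 0.014 and 0.014 for Ramp2), with the same differences, since the βTC6 arrays differ from each other for both genes and enter the shared estimate of the spread.

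Thus 3 of the 9 genes were higher and 0 lower, where 20.7% of all 28109 probes tested were higher in Dox(+) EBs and 22.5% were lower. With the 2 groups' own arrays as the only ones in the fit, 4 were higher and 1 was lower. The median log2 difference was 0.07 over the 9 genes and -0.03 over all probes tested. At an unadjusted p under 0.05 in limma, 2 were lower, Ramp2 and Tek.

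**Figure D2:**
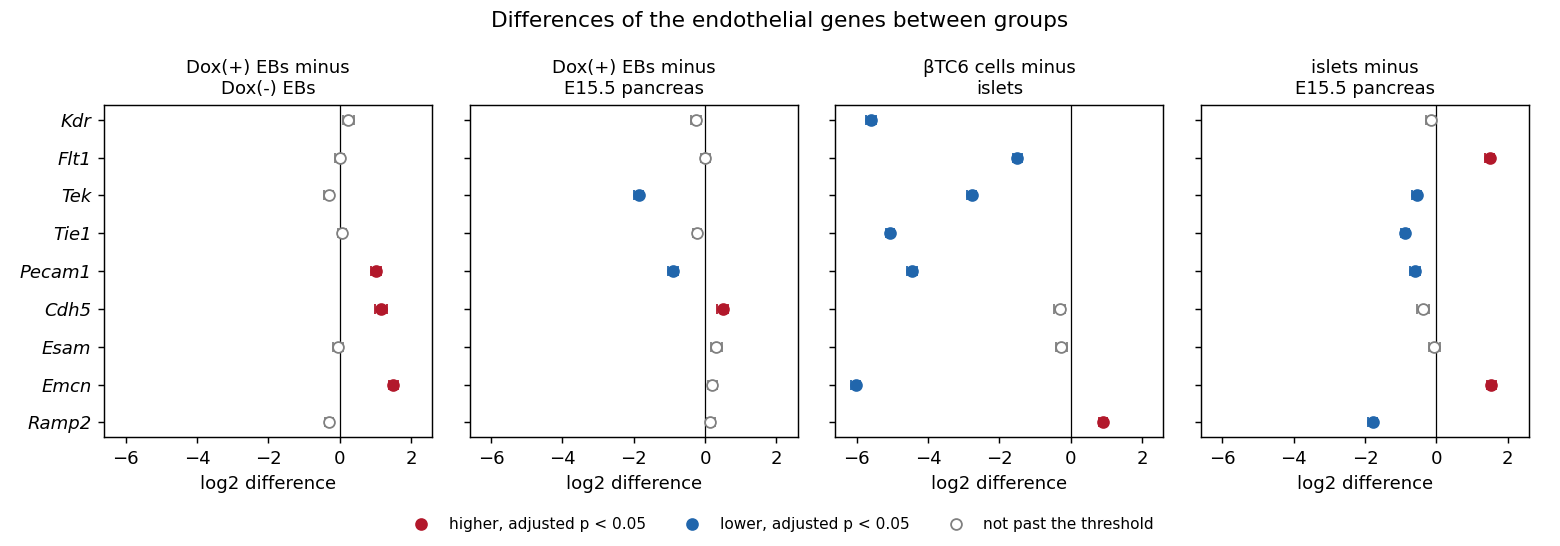
Log2 difference of 9 endothelial genes (x axis, first group minus second) in 4 comparisons, with the standard error from limma as bars; red points were higher and blue points lower at an adjusted p under 0.05, and open grey points did not pass. Emcn, Cdh5 and Pecam1 lie right of 0 for Dox(+) EBs against Dox(-) EBs, and Emcn lies farthest left, at -6.03, for βTC6 cells against islets.

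The ligands and partners of these receptors changed in both directions with doxycycline. Their counts, and those of the factor and marker lists below, stand beside 20.7% of all probes higher and 22.5% lower in Dox(+) EBs. Of 13 vascular ligands 12 were tested, and 2 rose, 6 fell and 4 did not pass, with a median log2 difference of -0.30. Pgf, placenta growth factor and a ligand of Flt1, rose to 4.39 and 4.27 in Dox(+) EBs, against 2.56 and 2.49 in Dox(-) EBs. Angpt2, a context-dependent ligand of Tek, fell to 1.74 and 1.51 in Dox(+) EBs, against 3.39 and 2.83 in Dox(-) EBs. Gdf2 (BMP9), a ligand of Acvrl1 and endoglin, fell to 1.39 and 1.69 in Dox(+) EBs, against 2.74 and 2.87 in Dox(-) EBs. Tgfb1 fell to 10.7 and 10.1 in Dox(+) EBs, against 25.4 and 26.3 in Dox(-) EBs. Of 13 receptor partners, 3 rose, 6 fell and 4 did not pass, with a median of -0.20, and without the first Dox(+) array or the second Dox(-) array 1 rose.

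Acvrl1, the type I receptor that works with endoglin, fell to 0.814 and 1.09 in Dox(+) EBs, against 4.07 and 5.70 in Dox(-) EBs. Ptprb, the endothelial phosphatase that acts on Tek, fell to 2.42 and 2.41 in Dox(+) EBs, against 4.89 and 5.49 in Dox(-) EBs. Nrp2, a VEGF coreceptor, fell to 1.04 and 1.27 in Dox(+) EBs, against 2.10 and 2.35 in Dox(-) EBs. The adrenomedullin receptor genes did not move together: Calcrl, the partner of Ramp2, rose to 3.96 and 3.39 in Dox(+) EBs, against 2.83 and 2.46 in Dox(-) EBs, whereas Ramp2 was lower on both arrays without passing the test. Ramp1, which pairs with Calcrl to form the receptor of calcitonin gene-related peptide, rose 8.37-fold, to 10.7 and 8.92 in Dox(+) EBs, against 1.26 and 1.08 in Dox(-) EBs (log2 difference 3.06, SE 0.17, adjusted p = 1.9e-07).

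Of 20 transcription factors known in endothelium, 8 rose, 4 fell and 8 did not pass, with a median of 0.10. Hey1, a target of Notch signalling, rose 4.39-fold, to 14.3 and 13.9 in Dox(+) EBs, against 3.32 and 3.10 in Dox(-) EBs (adjusted p = 2.4e-07). Hey2, its relative, rose to 0.957 and 0.919 in Dox(+) EBs, against 0.355 and 0.323 in Dox(-) EBs. The blood and endothelial factors Lyl1 and Tal1 fell, Lyl1 to 0.965 and 0.710 in Dox(+) EBs, against 4.53 and 4.47 in Dox(-) EBs, and Tal1 to 29.5 and 31.9 in Dox(+) EBs, against 53.8 and 58.0 in Dox(-) EBs.

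Of 29 further endothelial markers 27 were tested, and 5 rose, 12 fell and 10 did not pass, with a median of -0.32; without either βTC6 array, 8 rose. Stab2, a scavenger receptor of liver and spleen sinusoids, fell to 0.398 and 0.366 in Dox(+) EBs, against 15.6 and 14.2 in Dox(-) EBs (39.1-fold, adjusted p = 2.4e-10). Its relative Stab1, which macrophages share, fell to 5.54 and 4.55 in Dox(+) EBs, against 34.1 and 24.5 in Dox(-) EBs. Vwf, the clotting factor of endothelial granules that platelets also store, fell to 1.58 and 1.38 in Dox(+) EBs, against 9.60 and 8.11 in Dox(-) EBs. Lyve1, a hyaluronan receptor of lymphatic and sinusoidal endothelium, rose to 8.00 and 7.87 in Dox(+) EBs, against 2.50 and 2.82 in Dox(-) EBs. Notch4, a Notch receptor of endothelium, did not pass.

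Markers of other cell types moved with the same comparison, and their part in the endothelial values was not tested. Their counts stand beside the same shares of all probes, 20.7% higher and 22.5% lower. Of 18 blood and platelet genes 12 were tested, and 10 fell and 0 rose, with a median of -4.52; the summed level of 11 of them was 7.73 to 9.19 in Dox(+) EBs, with 4 at background, and 238 to 256 in Dox(-) EBs, with 0 at background. Pf4, a platelet chemokine, was at 0.797 and 0.663 in Dox(+) EBs, against 98.6 and 89.2 in Dox(-) EBs, and Ppbp, another, was at least 223-fold lower, with both Dox(+) arrays at the floor of 0.27. Treml1 and Gp9, both platelet genes, fell 57.4-fold and 61.0-fold. Of the members, platelets also carry Pecam1, which rose, and Esam, which did not pass.

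Of 15 pericyte and mesenchyme genes, 2 rose (1 without the first Dox(+) array or either Dox(-) array), 10 fell and 3 did not pass, with a median of -1.01 and a summed level of 274 to 283 in Dox(+) EBs against 751 to 814 in Dox(-) EBs. Among the summed genes, the collagen gene Col3a1, named only for this, was saturated on both Dox(-) arrays and both E15.5 arrays. The Dox(-) and E15.5 sums of this list, here and below, are therefore lower limits. The collagen genes Col1a1 and Col1a2 fell 16.5-fold and 7.29-fold, and the matrix proteoglycans Lum and Dcn fell 13.5-fold and 6.44-fold. All 5 epithelial genes tested fell, among them Krt19 (8.26-fold), Cldn4 (4.38-fold), Epcam (2.29-fold) and Cdh1 (2.07-fold). Endocrine genes rose in 6 of 7 tested, with a median of 5.63, among them Sst, Chga, Neurod1 and Gcg. Acinar genes rose in 3 of 4 tested, Cpa1 by 32.5-fold, Cela1 by 3.37-fold and Prss2 by 1.59-fold, and Amy2a5 was at 0.361 in Dox(+) EBs and 0.27 in Dox(-) EBs on average without passing.

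**Figure D3:**
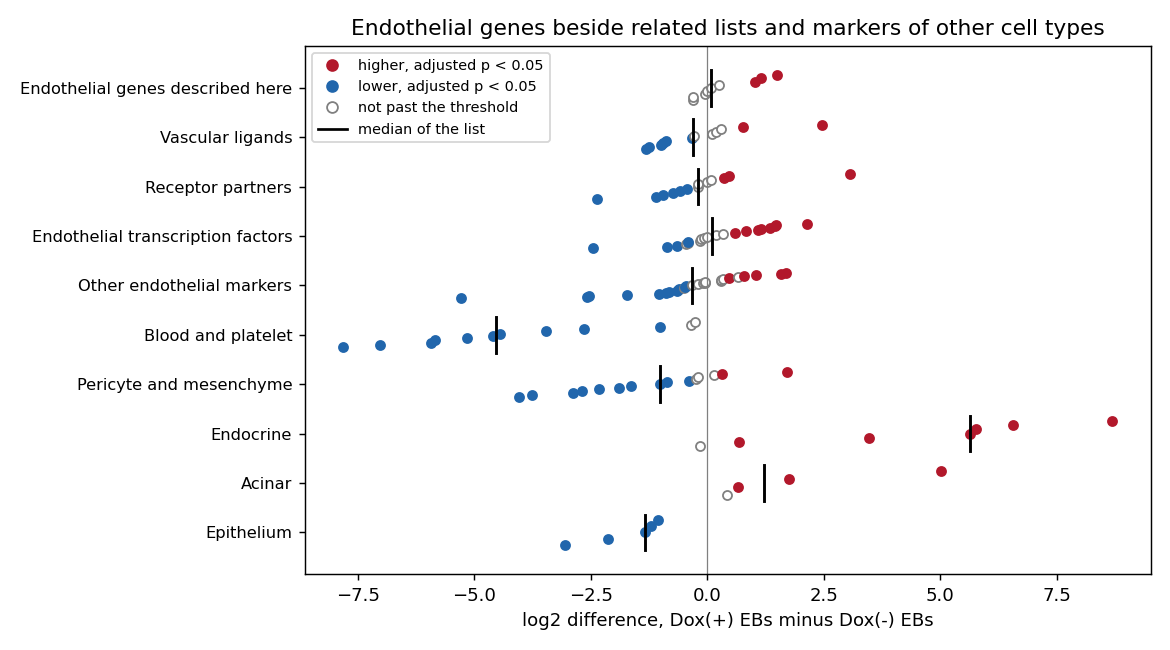
Log2 difference, Dox(+) EBs minus Dox(-) EBs (x axis), of every tested gene of the endothelial genes and of 9 related lists or markers of other cell types; a point is a gene, the black bar is the median of its list, and filled points passed an adjusted p of 0.05. The endothelial genes have a median of 0.07, and the blood and platelet genes one of -4.52.

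The next comparison asks how close the Dox(+) EBs came to the embryonic organ. Of the 9 genes 6 did not pass the test against E15.5 pancreas. Tek was 3.64-fold lower in Dox(+) EBs (log2 difference -1.86, SE 0.13, adjusted p = 7.1e-07) and Pecam1 was 1.85-fold lower (log2 difference -0.89, SE 0.14, adjusted p = 0.00024). Cdh5 was 1.40-fold higher (log2 difference 0.49, SE 0.17, adjusted p = 0.026). The Cdh5 call was lost with floors of 0.1 or 1, with normexp and quantile normalization, and without the first Dox(+) array (adjusted p = 0.14) or either E15.5 array (adjusted p = 0.056 and 0.12). Kdr, Flt1, Tie1, Emcn, Esam and Ramp2 differed by -0.26 to 0.32 on the log2 scale. Thus 1 gene was higher and 2 were lower, where 33.1% and 26.9% of all probes were, and with quantile normalization 4 were lower, Kdr and Tie1 being added. Kdr was also lower without either βTC6 array (adjusted p = 0.011 each), Tie1 without the first Dox(+) array (adjusted p = 0.049), and Emcn was higher without the second E15.5 array (adjusted p = 0.030). Other cell type markers moved here too, and their part was not tested. The pericyte and mesenchyme genes summed to 274 to 283 in Dox(+) EBs against 518 to 519 in E15.5 pancreas, with 0 of 15 at background in either. The 11 blood and platelet genes summed to 7.73 to 9.19, with 4 at background, against 76.0 to 78.6, with 0 at background, and the 4 acinar genes to 16.1 to 20.9 against 630 to 656.

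The comparison of Dox(-) EBs with E15.5 pancreas shares its E15.5 arrays with the one before. In Dox(-) EBs 6 genes were lower, where 24.8% of all probes were, and 1 gene, Ramp2, was higher, where 33.6% were. Pecam1 was 3.78-fold lower, Tek 2.94-fold and Emcn 2.46-fold, Cdh5 was at least 1.57-fold lower, and Kdr and Tie1 were 1.43-fold and 1.22-fold lower. Ramp2 was 1.36-fold higher (adjusted p = 0.0076), and did not pass without the first Dox(-) array or the first E15.5 array (adjusted p = 0.062 and 0.051). Kdr did not pass without the first Dox(-) array or either E15.5 array (adjusted p = 0.050 to 0.064), nor Tie1 (adjusted p = 0.047 with all arrays) without either array of Dox(-) EBs, islets or E15.5 pancreas (0.051 to 0.23). Esam passed as higher without either βTC6 array or the second Dox(-) array (0.016 to 0.035). In Dox(-) EBs the pericyte and mesenchyme sum, 751 to 814, and the blood and platelet sum, 238 to 256, were above those of E15.5 pancreas, and the acinar sum was 1.90 to 1.92. Their part was not tested.

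Against islets, Dox(+) EBs were higher in 4 genes and lower in 3, where 36.4% and 31.6% of all probes were. Ramp2 was 3.82-fold higher, Cdh5 1.81-fold, Tie1 1.58-fold and Esam 1.29-fold (adjusted p = 0.048 for Esam, which did not pass with quantile normalization or without any 1 array of Dox(+) EBs, islets or E15.5 pancreas, at 0.055 to 0.27). Emcn was 2.54-fold lower and Tek 2.48-fold lower, and Flt1 was at least 2.83-fold lower. Pecam1 and Kdr did not pass, though Pecam1 was lower with quantile normalization and without either Dox(-) array (adjusted p = 0.037 each). Dox(-) EBs were higher than islets in 3 genes, Ramp2, Tie1 and Esam, where 37.7% of all probes were, and lower in 5, Emcn, Pecam1, Tek, Kdr and Flt1, where 32.3% were. Emcn was 7.21-fold lower and Pecam1 2.50-fold lower in Dox(-) EBs than in islets. The calls of Kdr (adjusted p = 0.037) and Esam (0.028) were the weak ones: Kdr did not pass without any 1 of the 8 arrays other than βTC6 (0.062 to 0.17), and Esam did not without the first Dox(-) array, either Dox(+) array or the second islet array (0.052 to 0.26). Cdh5 was lower without the second islet array (0.033). The marker sums differed here too: the pericyte and mesenchyme genes were at 274 to 283 in Dox(+) EBs and 751 to 814 in Dox(-) EBs, against 64.2 to 65.2 in islets, and the blood and platelet genes at 7.73 to 9.19 and 238 to 256, against 19.0 to 20.8. Acinar genes summed to 16.1 to 20.9 in Dox(+) EBs and 1.90 to 1.92 in Dox(-) EBs, against 1047 to 1211 in islets. The part of these markers was not tested.

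The βTC6 line, a cell line with no vessels, had 5 of the 9 genes at background on both arrays, Pecam1, Cdh5, Tie1, Flt1 and Emcn, and Kdr and Tek at background on 1 of the 2, so that the folds of Kdr and Tek against βTC6 rest on a level measured above background on 1 array. Relative to βTC6 cells, Dox(+) EBs were higher in 8 genes, where 25.5% of all probes were, and lower in 0, where 37.4% were. Tie1 was at least 46.2-fold higher in the Dox(+) EBs, Kdr 44.4-fold, Emcn at least 22.0-fold and Pecam1 at least 15.3-fold. Tek was 2.76-fold higher, Ramp2 2.05-fold and Esam 1.55-fold, and Cdh5 was at least 1.93-fold higher. Flt1 was at the floor in both groups, and 0 genes were lower at an unadjusted p under 0.05 in limma.

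Dox(-) EBs were higher than βTC6 cells in 7 genes, where 28.7% of all probes were, and lower in 0, also at an unadjusted p under 0.05, where 37.9% were. Cdh5, at background in both, was the gene that passed for Dox(+) EBs and not here. In Dox(-) EBs, Pecam1 exceeded its βTC6 level at least 7.52-fold and Emcn at least 7.79-fold. The medians of all probes in the comparisons with βTC6 cells lay off 0, by -0.11 for Dox(+) EBs, -0.07 for Dox(-) EBs, 0.12 for βTC6 cells against islets and 0.21 for βTC6 cells against E15.5 pancreas, and the calls named here are relative to the array median and not to these shifts.

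The comparison of βTC6 cells with islets sets the insulinoma line against the tissue that has vessels, on slides of 1 number range. In βTC6 cells 6 genes were lower, where 27.0% of all probes were, and 1 gene was higher, where 39.1% were. Emcn was at least 56.1-fold lower, Kdr 48.5-fold lower, Tie1 at least 29.3-fold lower, Pecam1 at least 18.7-fold lower, Tek 6.85-fold lower and Flt1 at least 2.43-fold lower. Ramp2 was 1.86-fold higher in βTC6 cells than in islets (log2 difference 0.90, SE 0.12, adjusted p = 4.7e-05). Esam differed by -0.26 (adjusted p = 0.14, and 0.038 without the second βTC6 array) and Cdh5 by -0.31 (adjusted p = 0.12, and 0.031 without the second islet array). The same genes passed, in the same directions, in a fit of the 4 arrays of these groups alone. Acinar markers moved too, with a sum of 1.38 to 1.49 in βTC6 cells against 1047 to 1211 in islets, and mesenchymal markers had a sum of 6.52 to 6.87 in βTC6 cells, with 9 of 15 at background, against 64.2 to 65.2 in islets, with 0 at background. Their part in the endothelial differences was not tested.

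Against E15.5 pancreas, βTC6 cells were lower in 7 genes, where 23.7% of all probes were, and higher in 0, where 41.8% were. Tie1 was at least 53.6-fold lower, Kdr 53.3-fold, Pecam1 at least 28.4-fold, Emcn at least 19.2-fold and Tek 10.0-fold. Ramp2 was 1.85-fold lower and Cdh5 at least 1.37-fold lower. Esam was 1.24-fold lower without passing (adjusted p = 0.086), and passed with quantile normalization and without the second βTC6 array (adjusted p = 0.024). At an unadjusted p under 0.05, 0 were higher.

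Islets and E15.5 pancreas, a pair of vascularised tissues, differed in 6 of the 9 genes and in both directions. Emcn was 2.93-fold higher in islets (log2 difference 1.55, SE 0.12, adjusted p = 1.0e-06) and Flt1 at least 2.83-fold higher. Flt1 was tested only because it was above background in islets, so its call, which is counted here, is not support. Ramp2 was 3.45-fold lower in islets (log2 difference -1.79, SE 0.12, adjusted p = 2.3e-07), Tie1 1.83-fold lower, Pecam1 1.51-fold lower and Tek 1.46-fold lower. Kdr, Cdh5 and Esam did not pass, with differences of -0.14, -0.37 and -0.05, although Cdh5 was lower without the first islet array (adjusted p = 0.018). The count of 2 higher and 4 lower stands beside 32.5% of all probes higher and 32.5% lower. Other lists moved with this comparison: in islets the pericyte and mesenchyme genes summed to 64.2 to 65.2, against 518 to 519 in E15.5 pancreas, and the blood and platelet genes to 19.0 to 20.8, against 76.0 to 78.6.

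The related lists differed in where βTC6 cells stood, and their counts stand beside those of all probes. In βTC6 cells 39.1% of all probes were higher than in islets and 27.0% lower. Against E15.5 pancreas the shares were 41.8% and 23.7%. The vascular ligands were divided: of 12 tested, βTC6 cells exceeded islets in 6 and fell below them in 4, and exceeded the E15.5 organ in 6 and fell below it in 5. Of 13 receptor partners, βTC6 cells had 0 above their islet level and 10 under it, with 2 above the E15.5 level and 10 under it. For the 20 transcription factors, 3 lay above the islet level in βTC6 cells and 11 under it, with 1 above the E15.5 level and 14 under it. Of 27 further endothelial markers, 23 were lower in βTC6 cells than in islets and 1 was higher, and 25 were lower in βTC6 cells than in E15.5 pancreas and 0 were higher. Between islets and E15.5 pancreas, 5 of the 27 were higher in islets and 16 were lower, where 32.5% and 32.5% of all probes were. Between Dox(+) EBs and E15.5 pancreas, 5 were higher in Dox(+) EBs and 17 were lower, where 33.1% and 26.9% of all probes were. Their median was -0.68, and that of all probes was 0.07. The transcription factors went the other way there, with 10 of 20 higher in Dox(+) EBs than in E15.5 pancreas and 2 lower. The summed level of the 9 endothelial genes was 79.6 to 85.3 in Dox(+) EBs, 75.0 to 78.5 in Dox(-) EBs, 18.8 to 23.5 in βTC6 cells, 72.7 to 76.2 in islets and 88.7 to 91.8 in E15.5 pancreas.

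A last step down to βTC6 cells passed the test for 5 of the 9 genes, Pecam1, Kdr, Tek, Tie1 and Emcn, and not for Cdh5 or Esam. Ramp2 had islets last in its order, and its step from E15.5 pancreas down to βTC6 cells passed. Flt1 was at the floor in every group but islets, so its order below islets is a tie. Over the 10 arrays, which form 5 groups of 2, the Pearson correlation of log2 levels was above 0 for 31 of the 36 pairs and below 0 for 5, with a median of 0.48. Kdr and Tie1 were most alike (r = 0.99), followed by Pecam1 and Kdr (r = 0.96), and Flt1 and Ramp2 were least alike (r = -0.83). These values describe 5 groups and carry no test.

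The mean of the standardised log2 levels of the 9 genes was 0.51 and 0.40 in Dox(+) EBs, against 0.18 and 0.06 in Dox(-) EBs, -1.44 and -1.23 for βTC6, 0.42 and 0.21 for islets and 0.42 and 0.46 for the E15.5 organ. The 10 genes most like this mean, of 14884 genes with a value on all 10 arrays, were Plpp3 (r = 0.99), Frmd4b, Rapgef3, Fgd5, Chchd7, Il18, Snrk, Calcrl, Sspn and Pon2 (r = 0.98 for the last). Rapgef3, which encodes the exchange factor Epac1, was at 2.58 and 2.74 in Dox(+) EBs, against 1.48 and 1.40 in Dox(-) EBs, 0.27 on both βTC6 arrays, 2.69 and 2.65 for islets and 2.26 and 2.42 for the E15.5 organ. Fgd5, an exchange factor for Cdc42, was at 2.87 and 2.84 in Dox(+) EBs, against 2.33 and 2.13 in Dox(-) EBs, 0.27 on both βTC6 arrays, 2.44 and 2.16 for islets and 4.12 and 4.08 for the E15.5 organ. Calcrl was also at 0.27 on both βTC6 arrays, whereas Plpp3 read 1.05 and 1.68 and Frmd4b 2.49 and 2.35 there.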

How the data were processed

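The arrays were CodeLink mouse arrays scanned by the authors with CodeLink Expression Analysis 4.1.0.29054. The deposited files hold intensity values: the spot mean minus the local background median, divided by the array median over 34967 discovery probes. The 1260 control spots were left out, masked, contaminated and irregular spots counted as missing, and saturated spots stayed in. The GeneSpring step and the removal of invalid probes in the methods were not repeated here. The probes with 1 gene symbol numbered 21615, those with several 681 and those with none 12671, and symbols were updated by gene ID from a RefSeq table (GRCm38.p6).

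Log2 levels, with 0.27 as the floor, entered 1 linear model of group means over the 10 arrays in limma 3.58.1 (R 4.3.3; trend and robust eBayes, 5 residual degrees of freedom, median prior 5.22), for 28109 probes that were measured in every group and above background on the 2 arrays of some group. P-values were adjusted by Benjamini-Hochberg over all probes and 0.05 was the threshold. On simulated data of 26555 probes for Dox(+) against Dox(-) EBs, the share of changed probes called was 14% for a log2 change of 0.5, 86% for 1, 70% for -1 and 100% for 2. There 26355 probes had no change, whereas 20.7% and 22.5% of all probes were called higher and lower between the real EB groups. The adjusted threshold therefore differs, and these shares do not give the power of the real test. Only 2 arrays a group limit the precision. A fold is a bound if both arrays of the lower group were at background or at the floor, or both arrays of the higher group were saturated.

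The members, lists and rules were chosen with earlier results of these data known. Named are all members, from each list the 4 or fewer genes lowest in adjusted p between the EB groups, Notch4, and the 10 genes most correlated with the mean of the members. Genes outside this rule are said to be so. The other settings tried were quantile normalization alone or after normexp (offset 50), a floor of 0.1 or 1, no filter, probes above background on all arrays, the arrays compared alone, eBayes without trend and robust weights, a replicate block, flagged spots kept, the second probe of Emcn, a 2-fold minimum and each array left out. Python 3.11.15 with numpy 2.4.6, pandas 2.3.3 and matplotlib 3.10.9 made the tables and figures.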

Additional observations from a re-analysis of the deposited data

How the results depend on the processing

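None of the 63 called differences of the endothelial genes, over 90 differences in 10 comparisons, took the opposite sign in an alternative that measured it, but some became 0. Between the EB groups, Emcn, Pecam1 and Cdh5 rose under every alternative except 3: Cdh5 differed by 0 at a floor of 1, which lies above all its levels, Emcn by 0 on its second probe, and none of the 3 was tested when a probe had to be above background on all arrays. That filter left Esam and Ramp2 alone, so by construction it gave 0 higher and 1 lower (Ramp2) between the EB groups, 0 and 0 for Dox(+) EBs against E15.5 pancreas, 0 lower for βTC6 cells against islets, 0 higher and 1 lower for islets against E15.5 pancreas, and 3 steps past the threshold in the orders of the groups. With only the arrays compared, 1 gene was lower between the EB groups, and 2 were higher in Dox(+) EBs than in E15.5 pancreas (Cdh5 and Esam). For Dox(+) EBs against E15.5 pancreas, 0 genes were higher with normexp, with floors of 0.1 or 1 and with a 2-fold minimum, and 4 were lower with quantile normalization, 5 with normexp and 1 with the 2-fold minimum. That minimum gave 0 higher for βTC6 cells against islets and 1 lower for islets against E15.5 pancreas, and a floor of 1 gave 1 higher for the last pair. Between the EB groups Kdr also passed with normexp (0.29, adjusted p = 0.015), where 4 genes were higher, and at a floor of 1 (adjusted p = 0.021), where 3 were, Emcn, Kdr and Pecam1.

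With each array left out in turn, the genes higher between the EB groups numbered 3 to 4 and those lower 0 to 1. For Dox(+) EBs against E15.5 pancreas they numbered 0 to 1 higher and 2 to 3 lower, for βTC6 cells against islets 1 higher and 6 to 7 lower, and for islets against E15.5 pancreas 2 higher and 4 to 5 lower, with 15 to 19 steps past the threshold in the orders. A left-out array leaves 1 in its group, which is assumed to vary like the others. The replicate numbers did not pair the arrays (correlation of deviations -0.071 to 0.065), and with a replicate block the counts were 3 and 0, 1 and 2, 1 and 6, and 2 and 4, as without it. Over all probes, βTC6 cells against E15.5 pancreas had 11756 higher and 6674 lower probes in the main analysis (63.8% higher of those called), and 9549 and 8398 with quantile normalization (53.2%) or 9341 and 8446 with normexp (52.5%). Under the all-array filter, 6674 lower probes became 3855 there. Levels near the floor, as for Cdh5 and Flt1, are the least precise.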

Other observations

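Flt4, Lyve1, Tal1 and Vegfa were looked at further after their values were seen. Flt4, the VEGF receptor of lymphatic and fenestrated endothelium, was unlike the other receptors: its probe read 127 and 118 in islets, 24.6 and 28.7 in βTC6 cells, 3.82 and 3.63 in Dox(+) EBs, 4.97 and 5.01 in Dox(-) EBs, and 5.97 and 6.19 in E15.5 pancreas. It was high in the cell line in which Kdr and Tie1 were near background. Vegfa, the ligand of Kdr and Flt1, read 24.4 on both βTC6 arrays and 40.0 and 35.3 in islets, against 11.3 and 11.5 in Dox(+) EBs, 10.1 and 11.1 in Dox(-) EBs, and 9.13 and 8.95 in E15.5 pancreas.

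Lyve1 read 12.0 and 10.6 in βTC6 cells and 15.7 and 14.2 in E15.5 pancreas, with 4.94 and 4.83 in islets. Tal1 read 30.6 and 31.0 in βTC6 cells, close to its 29.5 and 31.9 in Dox(+) EBs. What these probes detect in the insulinoma line was not tested.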
